A study of Arabidopsis thaliana with 9 samples.

Results

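The preys described here are Arabidopsis cDNA inserts that a yeast two-hybrid screen returned more often with the kinase PKS5 as bait than with SCAB1 or SOS2. A gene was a member if its lowest share of reads among the 3 PKS5 libraries was above its highest share among the 6 libraries of SCAB1 and SOS2. Shares are given as CPM, reads of a gene per 1000000 reads of its library. Of the 10224 genes of the table, 165 (1.61%) met this condition. The 10 genes with the highest mean CPM in PKS5 all met it and were set aside, which left 155 genes. Of these, 67 reached an average of 100 CPM in the PKS5 libraries and carry the description, and 88 lay below. The same values chose the genes, so levels and margins of members are descriptions.

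The groups were bait PKS5, bait SCAB1 and bait SOS2, with 3 libraries for every bait. Replicates 1, 2 and 3 of a bait are the libraries labelled with recovery times of 0, 2 and 4 h. All 9 shared the selection, growth without tryptophan, leucine and histidine in the presence of 1 mM 3-AT, which inhibits the histidine enzyme used as reporter. No library is labelled as unselected, so the level of an insert before selection was not measured. The labels do not say whether the libraries of a bait are separate cultures, and p-values measure the spread between these libraries.

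PKS5, also called SIP4 or CIPK11, belongs to the SnRK3 family of plant protein kinases, which are switched on by calcineurin B-like calcium sensors. In Arabidopsis it phosphorylates the plasma membrane proton pump AHA2 and lowers its activity, and the J-domain cochaperone J3 holds the kinase back. SOS2 is a kinase of the same family that acts in salt tolerance, and SCAB1 is an actin-bundling protein of plants. In a two-hybrid screen a bait and a prey that meet in the yeast nucleus switch on a reporter gene, and the prey insert is then identified by sequencing. Reads of a prey count PCR copies of plasmids from surviving colonies and are no measure of how strongly a prey binds.

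Library totals ranged from 1640114 to 3288437 reads, and a count of 0 allows up to 0.912 to 1.83 CPM (3 reads, counting error only). PKS5 replicate 2 stood apart from the other PKS5 libraries. It gave 81.4% of its reads to the 10 leading PKS5 genes, against 69.4% and 68.5% in replicates 1 and 3, and had the fewest distinct reads, 22024 against 31294 and 27034. Distinct reads are the unique reads of the table, and those of SCAB1 replicate 3 were not usable, so distinct reads with the other baits cover 5 libraries throughout. Its scaling factor (TMM, trimmed mean of M values) was 0.438, against 1.39 and 1.43. Without this library 354 genes in place of 155 met the condition.

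The 67 preys together took 11.5%, 9.68% and 12.3% of the reads in the 3 PKS5 libraries. They took 1.04%, 0.755% and 0.719% with SCAB1 and 1.77%, 1.46% and 1.45% with SOS2. The 10 leading genes took the larger part of the PKS5 reads, as given above, against 8.12% to 9.21% with SCAB1 and 3.45% to 5.16% with SOS2. Mean levels of the 67 ran from 101 to 14898 CPM, and 21 of them reached 1000 CPM. The margin, the lowest PKS5 level divided by the highest level with another bait, had a median of 3.93 and a range of 1.08 to 314. It was at least 2 in 53 genes, at least 10 in 20 and at least 100 in 4.

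**Figure D1:**
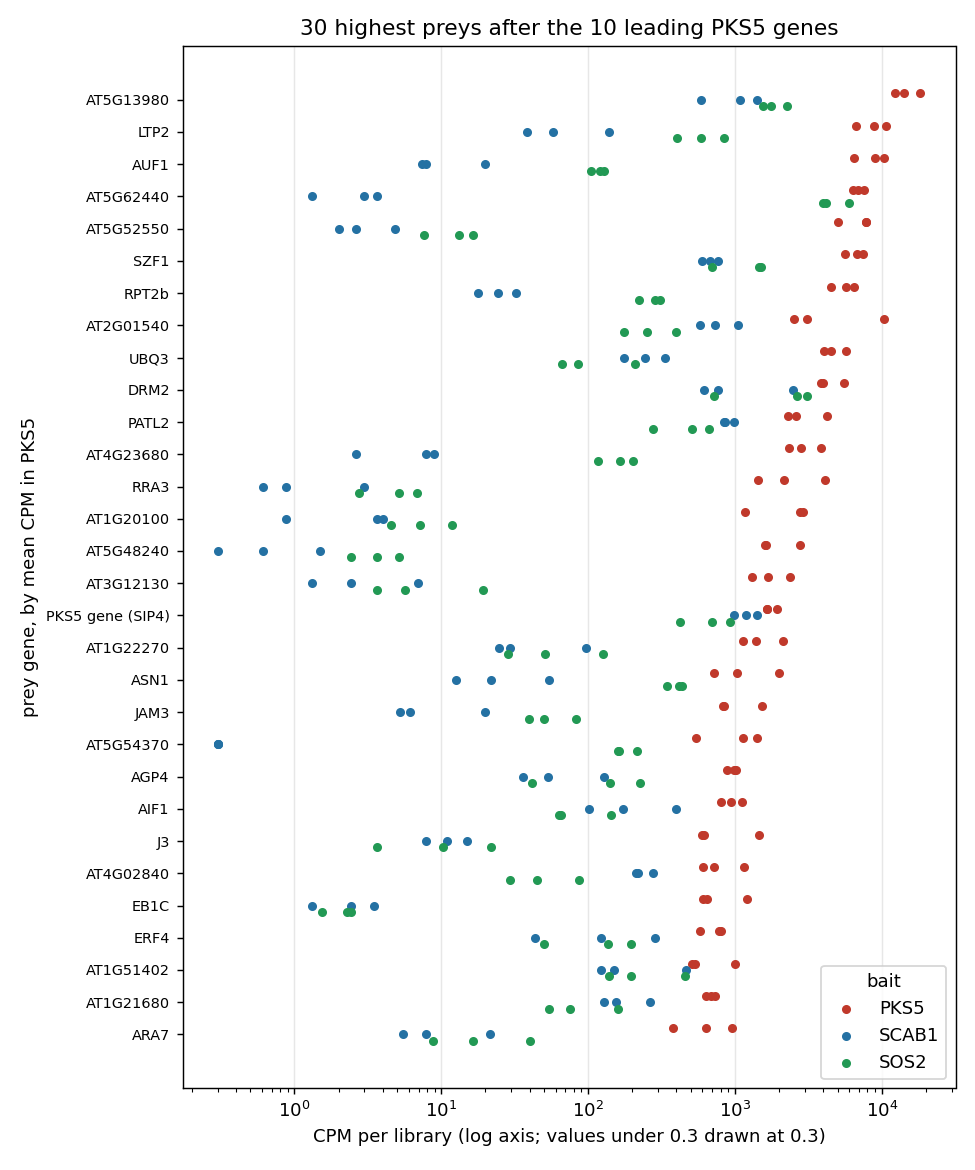
CPM per library on a log axis for the 30 preys with the highest mean in PKS5 after the 10 leading genes, with 1 point per library and PKS5 above SCAB1 and SOS2 in each line. PKS5 points lie right of all others in every line, by a wide gap for RRA3 and EB1C and by a narrow one for AT5G62440 and the PKS5 gene.

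Differences were tested with limma-voom against SCAB1 and against SOS2, and a gene was called higher only if both comparisons pointed up and the larger p passed an adjusted 0.05. Of the 3811 genes with enough reads for the test, 126 (3.31%) were called higher in PKS5 and 140 (3.67%) lower. Among the genes tested, 119 (3.12%) were above all other libraries in each PKS5 library and 193 (5.06%) below. Of the 67 preys 60 were called, and of all 155 members 109 could be tested and 98 were called. These counts follow from how the members were chosen and are not independent of it. The 126 calls comprised 7 of the 10 leading genes, the 98 members and 21 genes whose libraries overlapped between baits. Log2 differences below are PKS5 minus the mean of the other baits, and their median was 4.49 over the 67 preys and -0.14 over all genes tested. Of the 60 calls 35 stayed under every alternative run for them and 25 were lost under at least 1. Only 39 of the 60 had enough distinct reads for that alternative, and 19 of these lost their call there. Calls that did not meet it can count among the 35. Of the 7 preys that were not called, 5 were called with recovery time, which the baits share, as a block. Among these were AT4G02840 and AT2G46600, with blocked adjusted p-values of 0.00894 and 0.0182.

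**Figure D2:**
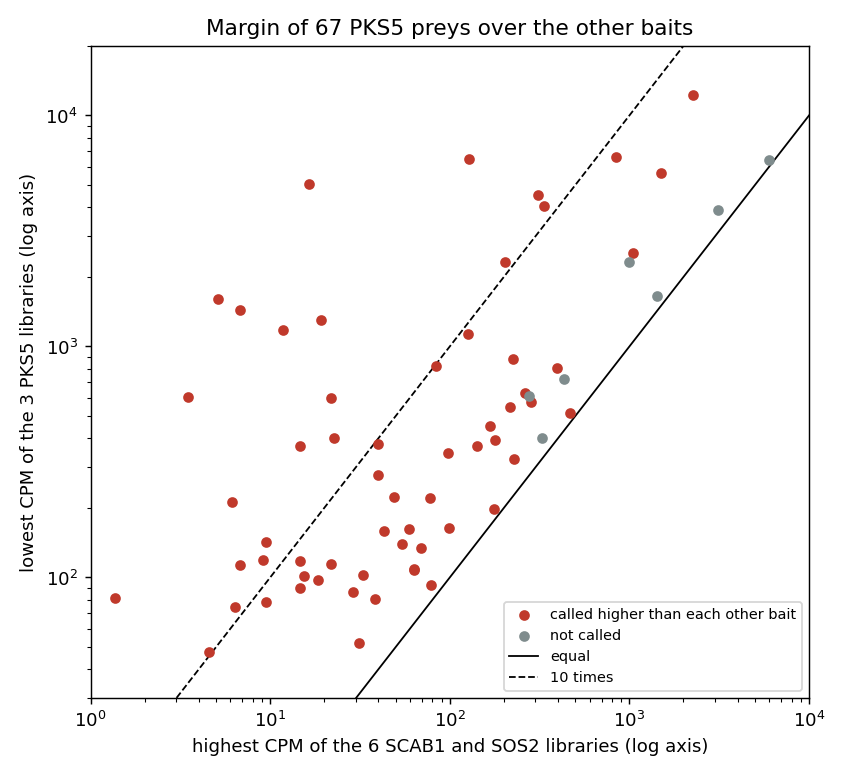
Lowest CPM of the 3 PKS5 libraries against the highest CPM of the 6 SCAB1 and SOS2 libraries for the 67 preys, on log axes, with lines where both are equal and where PKS5 is 10 times higher. All points lie above the line of equality, 20 of them on or above the line of 10 times, and the 7 grey points that were not called lie close to equality.

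Function was taken from RefSeq gene names, and the genes were sorted into roles after their values had been seen. Of the 155 members, 82 carried a name and 73 (47.1%) did not, against 50.3% of the table without a name. A role could be given to 76, of which 41 were among the 67 well-covered preys. The largest roles by number were cytoskeleton, traffic and transport with 15 members, transcription with 11, and kinases, phosphatases and signalling with 11. Roles were given to members only, so these counts have no share of the table to be set against. Genes were also sorted by words in their names, which is coarser. These words placed the cyclin CYCA3;2 with the kinases, and the proteasome ATPases RPT2b and RPT4A with transport. By name words, protein kinases and phosphatases, the PKS5 gene included, made up 5.16% of members and 1.5% of the table. The shares were 5.81% and 3.50% for transport and membrane traffic and 3.87% and 3.93% for transcription and chromatin. For ubiquitin, SUMO and protein breakdown they were 3.23% and 2.44%. Words for ribosome and translation and for RNA processing matched 0 members, against 38 (0.372%) and 66 (0.646%) genes of the table. Shares this small leave little room for a match among 155 members. These words also missed the RNA-binding members described below.

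**Figure D3:**
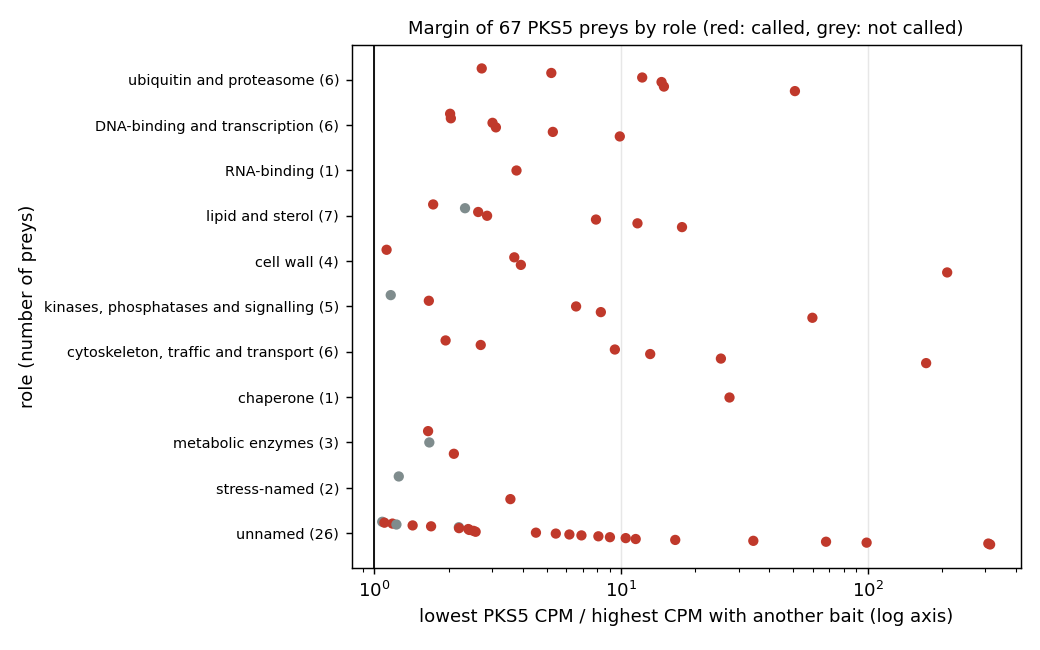
Lowest PKS5 CPM divided by the highest CPM with another bait, on a log axis, for the 67 preys by role, with the number of preys in brackets and called genes in red. Margins range from 2.72 to 50.8 in the ubiquitin and proteasome role, from 2.03 to 9.89 among transcription proteins and from 1.12 to 210.4 among cell wall proteins, and unnamed genes cover the whole range.

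Ubiquitin, the proteins that attach it and those that act downstream of it made up a role with 8 members. All 8 were called, with a median log2 difference of 4.92. Calls and differences in this and the later roles follow from how members were chosen. Over all 3811 genes tested, 126 (3.31%) were called higher. AUF1, an F-box protein, had 6471, 8948 and 10345 CPM in PKS5, against 20.0, 7.43 and 7.93 with SCAB1 and 128, 120.3 and 104 with SOS2. The lowest PKS5 library was thus 50.8 times the highest other library (log2 difference 8.04 with an SE of 0.57, limma-voom adjusted p = 3.91e-08). F-box proteins hand substrates to a ubiquitin ligase built on the scaffold cullin CUL1. CUL1 was itself a member, at 187, 30.7 and 64.6 CPM in PKS5, against 4.37 to 16.5 with SCAB1 and 3.35 to 15.5 with SOS2. Its reads rested on 4 to 6 distinct reads per PKS5 library and on 2 to 7 in the other libraries with a usable column. Its PKS5 values spread more than those of AUF1.

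RPT2b, an ATPase subunit of the proteasome's regulatory particle, had 4508, 5678 and 6519.7 CPM in PKS5, against 32.5, 24.5 and 17.7 with SCAB1 and 309, 287 and 224 with SOS2 (log2 difference 6.24 with an SE of 0.56, limma-voom adjusted p = 5.9e-06). Every SOS2 library stood above every SCAB1 library for this gene. A second ATPase subunit, RPT4A, was lower, at 186, 162 and 347 CPM in PKS5, against at most 59.5 with SCAB1 and 51.0 with SOS2. The core subunit PBG1 had 75.3, 37.3 and 115 CPM in PKS5, with 21.4 CPM as the highest value elsewhere. Distinct reads of RPT4A were 5 to 6 in PKS5 and 2 to 7 elsewhere, and those of PBG1 5 to 9 and 2 to 11. NPL41, a relative of the yeast protein Npl4 that works with the unfolding ATPase Cdc48, had 152, 142 and 209.6 CPM in PKS5, against 0.874 to 9.49 with SCAB1 and 0.608 to 9.11 with SOS2. The ubiquitin-conjugating enzyme variant MMZ3 had 149.7, 114 and 198 CPM in PKS5 and at most 21.9 CPM elsewhere.

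UBQ3 encodes polyubiquitin, a chain of ubiquitin units that is cut after translation. It had 4538, 4056 and 5674 CPM in PKS5, against 333, 243 and 176 with SCAB1 and 209, 86.0 and 66.9 with SOS2 (log2 difference 5.01 with an SE of 0.50, limma-voom adjusted p = 5.82e-06). All 5 polyubiquitin genes were in the table, of which 4 were tested and 2 called higher, UBQ3 and UBQ11, the second being 1 of the 10 leading genes. UBQ10 pointed the other way against SCAB1, with 2169, 1369 and 1837 CPM in PKS5 and 15705 to 19441 CPM with SCAB1. UBQ14 had 64.0, 24.1 and 66.0 CPM in PKS5 and overlapped with both other baits. Polyubiquitin copies are nearly identical in sequence, so the copy that a read came from is uncertain.

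Transcription proteins had 11 members, of which 6 were among the well-covered preys and 8 were tested and called. JAM3, a basic helix-loop-helix protein of jasmonate signalling, led with 824, 847 and 1536 CPM in PKS5, against 20.0, 5.25 and 6.10 with SCAB1 and 83.3, 39.4 and 50.2 with SOS2 (log2 difference 5.66 with an SE of 0.45, limma-voom adjusted p = 2.18e-07). AIF1 and BIM1 are further helix-loop-helix proteins, both linked to brassinosteroid signalling. AIF1 had 809.7, 947 and 1113 CPM in PKS5, against 397, 102 and 173 with SCAB1 and 144, 63.0 and 65.1 with SOS2. BIM1 had 372, 86.9 and 148 CPM in PKS5 and 17.1 to 28.9 CPM with SCAB1, and it had no read in any SOS2 library. A count of 0 allows at most 1.54 CPM there.

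ERF4, an ethylene response factor that acts as a repressor, had 802, 577 and 779 CPM in PKS5, against 285, 43.7 and 123 with SCAB1 and 196, 136 and 50.2 with SOS2. Its relative ERF6 was lower, at 40.7, 39.3 and 52.2 CPM in PKS5 and at most 17.3 CPM elsewhere, with a call that was lost without scaling factors (adjusted p = 0.104, over alternatives 9.00e-06 to 0.104). AXR3, an Aux/IAA repressor of auxin responses, had 115, 97.8 and 174 CPM in PKS5, against 5.25 to 18.5 with SCAB1 and 4.87 to 17.3 with SOS2. Another Aux/IAA protein, IAA14, was a member below the filter for testing, at 8.53, 4.96 and 4.31 CPM in PKS5. The zinc finger homeodomain protein HB27 had 102, 151 and 111 CPM in PKS5, against at most 32.9 with SCAB1 and 3.64, 3.07 and 0.608 with SOS2. Its reads came from 32, 45 and 33 distinct reads, and it was the 1 well-covered prey in this role that was highest in PKS5 replicate 2. Calls were lost without PKS5 replicate 2 for AIF1, ERF4 and HB27, and with distinct reads for AIF1 and ERF4. Of 18 alternatives, AIF1 lost its call under 3, ERF4 under 2 and HB27 under 6. By limma-voom the highest adjusted p was 0.322 for AIF1 and 0.258 for ERF4, both with distinct reads. For HB27 it was 0.485, without PKS5 replicate 2. The lowest values over the alternatives were 1.91e-08, 1.42e-10 and 2.14e-07.

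RNA-binding proteins were 7 members, but only SZF1 was above 100 CPM. SZF1, a CCCH zinc finger protein named for its induction by salt, had 5626, 7513 and 6829 CPM in PKS5, against 675, 772 and 593 with SCAB1 and 1461, 696 and 1504 with SOS2 (log2 difference 3.03 with an SE of 0.63, limma-voom adjusted p = 0.00859). The call was lost without PKS5 replicate 2 or without SOS2 replicate 1 or 2, with adjusted p-values of 0.233, 0.0582 and 0.0982 in a range of 2.08e-18 to 0.233. ECT2, which reads the methyl mark m6A on mRNA, was low but separate, at 26.5, 21.8 and 35.4 CPM in PKS5 and at most 1.37 CPM elsewhere, from 9 to 13 distinct reads. URT1, which adds uridines to mRNA ends, had 21.8, 17.2 and 23.9 CPM in PKS5 and at most 1.54 CPM elsewhere. TZF5, another CCCH protein, and the oligouridylate-binding UBP1B were called at means of 7.34 ± 0.211 and 12.6 ± 3.85 CPM in PKS5 (SD, n = 3). TZF5 reached the filter on reads in its PKS5 libraries alone. TZF5 lost its call under 8 of 16 alternatives and UBP1B under 4 of 16, both of them without scaling factors among others. Their adjusted p ranged from 0.00858 to 0.761 for TZF5 and from 0.00413 to 1 for UBP1B. UBP1A and UBA2A were at 2.84 CPM or less in every PKS5 library.

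Lipid and sterol proteins had 8 members, of which 7 were well covered and 6 were called. LTP2, a small secreted lipid transfer protein, was the highest named prey, with 6632, 8899.6 and 10665 CPM in PKS5, against 138, 38.5 and 57.9 with SCAB1 and 591, 838 and 405 with SOS2 (log2 difference 5.57 with an SE of 0.57, limma-voom adjusted p = 3.58e-05). LTPG2, a lipid transfer protein held at the membrane by a lipid anchor, had 517, 372 and 698 CPM in PKS5 and 73.9 to 141 CPM elsewhere. PATL2, a patellin with a lipid-binding Sec14 domain, had 2312, 2615 and 4271 CPM in PKS5, against 859, 992 and 838 with SCAB1 and 514, 277 and 667 with SOS2. PATL2 was not called (adjusted p = 0.364 by limma-voom, range over alternatives 1.59e-08 to 1), but it was with recovery time as a block (adjusted p = 0.0326). LTPG2 lost its call with distinct reads and without PKS5 replicate 2 (range 1.22e-10 to 1). The difference of PATL2 from SCAB1 was 1.54 on the log2 scale and that from SOS2 3.07.

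Enzymes of brassinosteroid synthesis stood among the lipid preys. DET2, a steroid reductase, had 404, 402 and 896 CPM in PKS5, against 10.5, 2.19 and 3.05 with SCAB1 and 22.8, 9.22 and 3.35 with SOS2 (log2 difference 6.46 with an SE of 0.44, limma-voom adjusted p = 8.44e-09). CPD, a cytochrome P450 of the same pathway, had 136, 109 and 214 CPM in PKS5, against 3.06 to 26.5 with SCAB1 and 13.1 to 62.8 with SOS2. CPD was not called on distinct reads, where its adjusted p was 0.311, the highest over alternatives that began at 2.52e-13. The phospholipase PLDGAMMA1 had 253, 74.3 and 179 CPM in PKS5 and at most 6.37 CPM elsewhere. CER26, which acts in the elongation of wax lipids, had 361, 222 and 266 CPM in PKS5 and 17.9 to 77.4 CPM elsewhere, and its call was lost with distinct reads, at an adjusted p of 0.0586, the highest over alternatives that went down to 7.57e-12.

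Cell wall proteins had 5 members with a large spread of margins. RRA3, an arabinosyltransferase that modifies extensins, had 4115, 1437 and 2144 CPM in PKS5, against 3.00, 0.874 and 0.610 with SCAB1 and 6.83, 5.12 and 2.74 with SOS2 (log2 difference 9.94 with an SE of 0.51, limma-voom adjusted p = 3.78e-10). Its lowest PKS5 library was 210.4 times its highest other library. The arabinogalactan protein AGP4 had 992, 879 and 1022 CPM in PKS5, against 129, 35.9 and 53.0 with SCAB1 and 224, 141 and 41.4 with SOS2. A relative, AGP16, lay near equality, with 307, 197 and 319 CPM in PKS5 and 176 CPM in SCAB1 replicate 1, so its margin was 1.12. PMEI1, an inhibitor of pectin methylesterase, had 538, 159 and 366 CPM in PKS5, against 13.1 to 43.0 with SCAB1 and 3.35 to 15.5 with SOS2. With distinct reads AGP4 and AGP16 were not called (highest adjusted p over alternatives 0.877 and 1, lowest 5.80e-20 and 2.65e-06).

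Kinases, phosphatases and other signalling proteins had 11 members, 5 of them well covered. The PKS5 gene itself was among these, with 1659, 1648 and 1933 CPM in PKS5, against 1183, 1416 and 987 with SCAB1 and 701, 426 and 926 with SOS2. It was high with every bait and was not called (adjusted p = 1 by limma-voom, range over alternatives 0.0289 to 1). Its difference from SCAB1 was 0.39 on the log2 scale and that from SOS2 1.80. Mean distinct reads of the gene were 13.3 in PKS5 and 17.6 in the other 5 libraries, the opposite order to reads. The genes of the other baits differed from this pattern, since SCAB1 had 34.5, 80.0 and 57.9 CPM with its own bait and SOS2 at most 6.66 CPM in any library.

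PP2CA, a clade A PP2C phosphatase that holds abscisic acid signalling back, had 111, 102 and 143 CPM in PKS5, against 7.49, 4.81 and 3.05 with SCAB1 and 15.5, 10.8 and 2.74 with SOS2 (log2 difference 4.43 with an SE of 0.42, limma-voom adjusted p = 1.04e-06). These reads came from 5, 2 and 2 distinct reads in PKS5. Of 9 clade A phosphatases 3 were in the table and 2 were tested. The other, ABI1, had 13.3, 4.96 and 18.2 CPM in PKS5, against 12.5, 6.12 and 7.32 with SCAB1 and 29.1, 13.8 and 9.12 with SOS2, so the baits overlapped. APD5, a PP2C of clade D, had 51.6, 8.92 and 33.0 CPM in PKS5 and at most 5.92 CPM elsewhere. APK2A, a receptor-like cytoplasmic kinase, had 203, 52.2 and 102 CPM in PKS5, against 5.25 to 18.0 with SCAB1 and 4.56 to 31.4 with SOS2. The kinase PK3 had 21.8, 26.8 and 67.5 CPM in PKS5 and at most 7.74 CPM elsewhere.

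The A-type cyclin CYCA3;2 was the well-covered prey with the lowest background. It had 400.4, 81.6 and 248 CPM in PKS5, against 0, 0.437 and 0 with SCAB1 and 1.37, 0.512 and 0 with SOS2, from 7, 6 and 6 distinct reads. All values with another bait were below 1.83 CPM, the limit for a count of 0 in the smallest library. IQM1, a calmodulin-binding protein, had 508, 78.6 and 121 CPM in PKS5, but these came from 2, 1 and 2 distinct reads. ARR4, a response regulator of cytokinin signalling, had 67.8, 80.6 and 79.9 CPM in PKS5 and 1.75 to 4.50 CPM with SCAB1, and its highest value with SOS2 was 15.03 CPM. The kinase PID and the phosphatase TOPP3 rested on 1 distinct read in each PKS5 library.

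Proteins of the cytoskeleton, of membrane traffic and of transport were 15 members, 6 of them well covered. EB1C, which tracks the growing ends of microtubules, had 605, 643 and 1201 CPM in PKS5, against 3.50, 1.31 and 2.44 with SCAB1 and 2.28, 1.54 and 2.43 with SOS2 (log2 difference 8.67 with an SE of 0.52, limma-voom adjusted p = 3.66e-09). Its levels with SCAB1 and SOS2 overlapped. ADF4, which severs and depolymerises actin filaments, had 796, 370.4 and 642 CPM in PKS5, against 8.49, 3.50 and 3.66 with SCAB1 and 14.6, 3.07 and 3.04 with SOS2. The actin-binding protein CAP1 was closer to the other baits, at 31.3, 27.4 and 69.4 CPM in PKS5 and at most 20.9 CPM elsewhere, and its call was lost without scaling factors (adjusted p = 0.376, over alternatives 0.000400 to 0.376).

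Small GTPases of the Rab family appeared at several levels. ARA7, of endosomes, had 639, 378 and 954 CPM in PKS5, against 21.5, 7.87 and 5.49 with SCAB1 and 40.1, 16.4 and 8.82 with SOS2 (log2 difference 5.61 with an SE of 0.39, limma-voom adjusted p = 3.66e-09). ARA-2 had 148, 134 and 294 CPM in PKS5, against 25.8 to 57.0 with SCAB1 and 15.2 to 69.2 with SOS2, a margin of 1.94. With distinct reads neither gene was called. The adjusted p was then 0.198 for ARA7 and 0.993 for ARA-2, the highest of ranges that began at 3.76e-26 and 6.85e-09. RABA4B was at 3.32 CPM or less. VPS54, a tethering protein of retrograde traffic, had 9.95, 4.96 and 7.18 CPM in PKS5 and no read with another bait.

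Membrane transporters were mostly low. The hexose carrier STP1 had 474, 452 and 714 CPM in PKS5, against 100.4, 31.0 and 20.7 with SCAB1 and 168, 77.8 and 41.1 with SOS2, and its call was lost with distinct reads, at an adjusted p of 0.717, the highest over alternatives that went down to 1.95e-17. Its distinct reads averaged 31.7 in PKS5 and 36.0 in the other libraries. URGT3, a nucleotide sugar transporter, had 131, 119.6 and 217 CPM in PKS5, from 1, 3 and 3 distinct reads. The calcium pump ACA8, the phosphate exporter PHO1, the sulfate transporter SULTR3;1 and the cation exchanger CAX9 were members at 5.26 CPM or less, too low to be tested.

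The cochaperone J3, a J-domain protein that works with heat shock protein 70, had 619.7, 600.4 and 1456 CPM in PKS5, and all values with SCAB1 and SOS2 were 21.9 CPM or less, a margin of 27.5. Distinct reads of J3 were 19, 16 and 18 in PKS5 and 4 to 13 elsewhere. Of 6 partners of PKS5 known from the literature, 5 were in the table, 2 were tested and 1, J3, was called. The proton pump AHA2 had 19.9, 7.27 and 19.1 CPM in PKS5, within the range of the other baits. CBL2, ABI5 and NPR1 were below 1.83 CPM in every library. Of the 10 calcineurin B-like sensors 7 were in the table and 0 were tested, and their highest value in any library was 5.01 CPM. All 12 genes of the 14-3-3 family, phosphoprotein-binding proteins, were in the table. Of the 8 that were tested, limma-voom called 0 higher and 0 lower, against 3.31% and 3.67% of all genes tested. Shares this small leave little room for a call among 8 genes. Their median log2 difference was -0.01, against -0.14 over all genes tested. By limma-voom and by limma-trend, 0 of the 8 had an unadjusted p under 0.05 in the same direction against both other baits.

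Metabolic enzymes had 8 members, mostly low, and 6 were called. ASN1, an asparagine synthetase, had 725, 1038 and 1983 CPM in PKS5, against 54.5, 12.7 and 21.9 with SCAB1 and 344, 417 and 435 with SOS2. It was not called (adjusted p = 0.0633 by limma-voom, range over alternatives 6.02e-09 to 0.637), with a difference of 5.42 from SCAB1 and 1.87 from SOS2 on the log2 scale, but it was called with recovery time as a block (adjusted p = 0.00497). Enzymes acting on nucleosides were guanosine deaminase GSDA, at 235, 163 and 259.9 CPM in PKS5, and the hydrolase URH2, at 44.1, 10.2 and 13.4 CPM. GSDA reached 98.9 CPM with SCAB1 and 81.5 CPM with SOS2, and its mean distinct reads were 8 in PKS5 and 8.8 elsewhere. Its call was lost under 4 of 18 alternatives. Of the genes named for dormancy or cold, COR314-TM2 was called, at 347, 391 and 562 CPM in PKS5 and at most 97.4 CPM elsewhere. DRM2, a dormancy-associated gene, had 5558, 3887 and 3989.9 CPM in PKS5, against 2473, 611 and 771 with SCAB1 and 3098, 2651 and 717 with SOS2, and was not called (adjusted p = 0.131 by limma-voom, range 4.17e-08 to 1), but it was with the block for recovery time (adjusted p = 0.0222).

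Genes without a name in the RefSeq table were 26 of the 67 (38.8%), and some of them led the list. AT5G13980 was the highest prey, with 18333, 14077 and 12283 CPM in PKS5, against 592, 1082 and 1405 with SCAB1 and 1762, 2258 and 1542 with SOS2 (log2 difference 3.52 with an SE of 0.71, limma-voom adjusted p = 0.00685). It was not called without PKS5 replicate 2, with an adjusted p of 0.152 in a range of 5.06e-31 to 0.152. AT5G52550 had 7864, 5064 and 7772 CPM in PKS5, against 2.00, 2.62 and 4.88 with SCAB1 and 13.2, 16.4 and 7.60 with SOS2 (log2 difference 10.51 with an SE of 0.63, limma-voom adjusted p = 4.99e-10). It came from 47, 52 and 47 distinct reads in PKS5 and from 1 or 2 in each of the 5 other libraries with a usable column.

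AT5G48240 had the largest margin, 314, with 1639, 1609 and 2783 CPM in PKS5 and at most 5.12 CPM elsewhere. AT1G20100 and AT3G12130 followed the same pattern, with margins of 99.1 and 67.9 and means of 2285 ± 964 and 1788 ± 553 CPM in PKS5 (SD, n = 3). AT5G54370 had 1142, 546 and 1409 CPM in PKS5 and 217, 159 and 163 CPM with SOS2, and it had no read with SCAB1. AT5G62440 was similar, at 6410.2, 6908 and 7597 CPM in PKS5 and 4188, 3972 and 5961 CPM with SOS2, but 1.31 to 3.66 CPM with SCAB1. It was not called (adjusted p = 1 by limma-voom, range over alternatives 0.000397 to 1), with a difference of 0.95 from SOS2 and of 11.48 from SCAB1 on the log2 scale. AT2G01540 was uneven across recovery, at 10397, 3118 and 2531 CPM in PKS5, against 578, 1044 and 732 with SCAB1 and 396, 251 and 175 with SOS2. Its call was lost under 8 of 18 alternatives, that of AT1G21680 under 8 and that of AT1G51402 under 12.

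AT5G62440, AT1G51402 and AGP16 lay just inside the condition, with margins of 1.08, 1.10 and 1.12 among genes of at least 100 CPM. AT1G15010, AT4G12510 and AT4G12520 lay just outside it, with ratios of 0.988, 0.981 and 0.978. Of the 287 genes with at least 100 CPM in PKS5, 77 (26.8%) met the condition, the 10 leading genes included. On CPM scaled with TMM factors, 62 of the 67 preys still met it, against 5.48% of the genes tested. AT5G62440, AT2G01540, PATL2, the PKS5 gene and ASN1 did not. The same reads chose the preys, so this is no independent check.

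SOS2 had a higher mean than SCAB1 for most preys, as it had for most genes. The SOS2 mean was above the SCAB1 mean in 47 of the 67 preys (70.1%) and in 74.8% of all genes tested. All SOS2 libraries were above all SCAB1 libraries in 16 preys, among them AUF1, RPT2b, ASN1 and AT5G54370. The reverse held in 7, among them BIM1, HB27 and AT4G02840. Neither count was made over all genes tested, so neither is read as a trait of the preys. The highest library outside PKS5 was SOS2 replicate 1 for 36 preys and SCAB1 replicate 1 for 15, both of them libraries at 0 h. These levels are CPM without TMM factors, which were largest for these libraries, 2.40 and 1.72. The share over all genes was not counted, so this is no trait of the preys.

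Within PKS5, recovery time and library cannot be told apart, with 1 library at each time. Of the 67 preys, 20 were highest at 0 h, 2 at 2 h and 45 at 4 h, which is 29.9%, 2.99% and 67.2%. Over all genes tested the shares were 43.1%, 0.997% and 55.9%. The highest PKS5 library exceeded the lowest by a median of 1.84 times over the preys, with a range of 1.16 to 6.46, and by less than 2 times in 45. Among the 3606 tested genes with a read in each PKS5 library the median was 3.77 times. The preys were chosen by their lowest PKS5 library and by their mean, so these medians cannot be compared.

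The deposited table also gives unique reads of each gene, here called distinct reads, which are far fewer than reads. In PKS5 a prey of the 67 had 6.75 to 1374 reads per distinct read, with a median of 114. The median number of distinct reads was 13 in the PKS5 libraries and 6 in the 5 other libraries with a usable column. As a share of all distinct reads of the library, 50 of the 67 preys were again above each of these 5 libraries, against 8.87% of the genes tested. Plain numbers of distinct reads did not overlap in 26, against 1.76% of the genes tested. The same libraries chose the preys and SCAB1 replicate 3 is missing, so neither count is an independent check. Mean distinct reads were higher in PKS5 for 57 preys and lower for 10, among them DRM2, STP1, LTPG2, AT2G46600 and the PKS5 gene. In 4 of the 67 preys a PKS5 library had 2 distinct reads or fewer, namely IQM1, URGT3, MMZ3 and PP2CA.

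**Figure D4:**
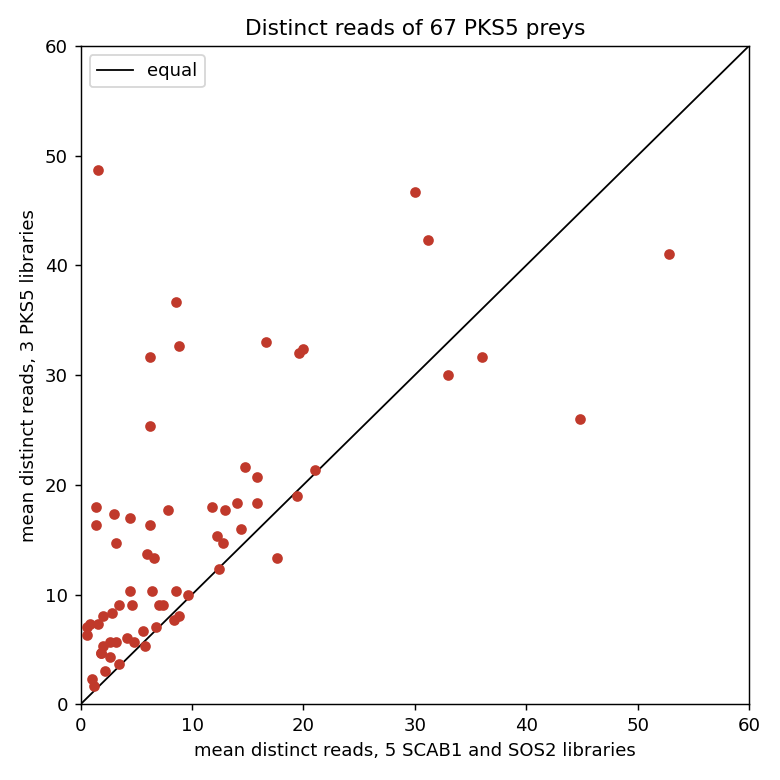
Mean number of distinct reads per gene in the 3 PKS5 libraries against the mean in the 5 SCAB1 and SOS2 libraries with a usable column, for the 67 preys, with the line of equality. AT5G52550 has the highest PKS5 mean, 48.7, and 10 preys lie below the line, DRM2 farthest to the right at 52.8.

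The 88 members below 100 CPM were mostly thinly covered. In 57 of them a PKS5 library held 2 distinct reads or fewer, and in 26 the mean of the 3 PKS5 libraries was no higher than 1.83 CPM. All 21 members with no read in any other library were in this group. Examples with more distinct reads were ECT2, URT1 and ERF6, whose PKS5 libraries held 9 to 13, 8 to 11 and 14 to 17. SCN1, with a mean of 71.9 CPM in PKS5, had 35, 37 and 30 distinct reads there.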

How the data were processed

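Inserts of preys from yeast selected with PKS5, SCAB1 or SOS2 as bait were sequenced in 9 libraries. Per the submitters' processing notes, the tools named are CASAVA, cutadapt 1.18 and HISAT2 and the build is TAIR10, and the rule that assigned reads to genes was not given in sources used here. Values were deposited by the authors for 10224 genes, and per the file headers every library has 1 column of reads and 1 of unique reads, which are other whole-number counts without normalization. Empty cells hold a mark, read here as 0. The unique reads of SCAB1 replicate 3 equal those of replicate 2 in 10224 cells and were not used. Totals were 1640114 to 3288437 reads (median 2110556). PCR copies are not independent, so the limits for a count of 0 cover counting error only.

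Because the read columns mix numbers with marks and were classed as other values, limma-voom (limma 3.58.1, R 4.3.3) was used in place of a count model, with TMM factors recomputed after trimming M values by 30% and A values by 5%, and with 0.5 reads added. Genes needed the equivalent of 10 reads, at the median depth, in 3 libraries and 15 in all, which left 3811. Each gene was compared with SCAB1 and with SOS2, the larger p was kept where signs agreed and set to 1 elsewhere, and p was adjusted by Benjamini and Hochberg over all genes tested. The fit was tested on simulated data. CPM are reads over library totals without TMM. Summaries used Python 3.11.15. Names came from RefSeq (TAIR10.1, 10201 genes matched and 23 not), and no coordinates were used because the builds differ in name.

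The genes named are the 30 highest preys, the 3 highest per function class, the 5 largest margins, the 3 nearest genes on each side of equality and members of gene lists, a rule written down at the start. Preys named by role beyond these were added after their values were seen. Members and lists were chosen with earlier results of these data known. Alternatives were other scalings, filters, limma-trend, distinct reads, recovery time as a block, the mean of the other baits, wider margins and each library left out.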

Additional observations from a re-analysis of the deposited data

How the results depend on the processing

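The calls of limma-voom, 126 higher and 140 lower, were 57 and 40 with distinct reads, where 1074 genes were tested, and 229 and 825 against the mean of the other baits. Totals that leave out genes above 5% of a library gave 90 lower. Leaving out 1 library gave 98 to 151 higher and 95 to 152 lower. No sign turned among the 84 named genes that were called, under the alternatives run for them. The median log2 difference of all genes was -0.14 with TMM factors, -0.26 for library size alone, -0.03 with relative log expression factors and 0.47 with totals that leave out genes above 5%. The 155 genes that did not overlap became 278 with TMM factors (143 of the 155 shared), 284 without genes above 5% (155 shared), 576 with distinct reads (118 shared), 50 at a margin of 10 and 67 at a mean of 100 CPM. Leaving out 1 library gave 156 to 354, the highest without PKS5 replicate 2, and leaving out the libraries at 0 h, an alternative chosen after seeing the data, gave 448. The causes were not tested. With a replicate block for recovery time, 136 genes were called higher and 168 lower, 5 uncalled preys were gained and no call among the named genes was lost. The baits share the recovery times that the replicate numbers stand for, and same-numbered libraries deviated from their bait means with correlations of -0.02 to 0.16. Whether they also share a batch is not in the labels. Of the 60 calls among the 67 preys, 19 were lost with distinct reads, out of 39 tested there, 13 without PKS5 replicate 2 and 7 for library size alone. Fewer reads per gene limit what the 88 members below 100 CPM can show.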

Other observations

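Among the genes called higher in PKS5 by limma-voom were 21 whose libraries overlapped between baits and which are therefore outside the members. The E2 enzyme SCE1, which attaches SUMO, a ubiquitin-like protein, averaged 133 CPM in PKS5 with a lowest library of 54.9 CPM, against a highest value of 73.8 CPM with another bait (log2 difference 2.55, adjusted p = 0.0327). The sucrose carrier SUC2 averaged 50.4 CPM, with 32.4 CPM in its lowest PKS5 library against 41.9 CPM. VAP27-1, a protein of contact sites between the endoplasmic reticulum and the plasma membrane, averaged 14.3 CPM in PKS5 and reached 5.46 CPM with another bait. These genes were named after their values were seen.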
